A study of Bos taurus with 15 samples.

Results

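A group of 64 genes was raised in the mammary gland of lactating cows 12 h after dexamethasone (DEX). In the average of the 3 cows used to choose these genes, they were close to their starting level at 24 h. In the cow kept out of the choice, 26.6% of them were within 0.4 of that level on the log2 scale, against 45.7% of the 4795 genes compared. The 64 genes were found among 24616 Ensembl identifiers in the deposited table, of which 13904 had a read in some library and 4795 reached an average of 4 normalized counts in the 12 libraries of cows 2, 3 and 4. They were selected on the measured changes after DEX. The rule took the change on the log2(normalized count + 0.5) scale between a time point and 0 h of the same cow, averaged over these 3 cows. It kept genes with a change of 0.8 to 4.3 at 12 h, above 0 in each cow, with a change within 0.4 of 0 at 24 h and within 0.5 of 0 at 72 h. Because the rule used every value of cows 2 to 4, those values are given as a description, and the libraries of cow 1, which it did not use, are read separately.

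The samples were needle biopsies from 4 non-pregnant Holstein cows in their second lactation, between 40 and 64 days in milk, taken immediately before (0 h) and 12, 24 and 72 h after an intramuscular injection of 40 mg of DEX. All cows received DEX and prophylactic ampicillin, so the 0 h biopsy of the same cow was the only control. Cows 2, 3 and 4 had a library at all 4 time points and cow 1 had 3, with none at 72 h, and cow 1 was therefore taken as the animal that fell ill and was withdrawn. Each time point came from a different gland of the udder, from QTR1 (left rear) at 0 h to QTR4 (right rear) at 72 h, in the same order in every cow. The injection was given in the evening, so the 12 h biopsy was a morning biopsy while those at 0, 24 and 72 h were taken in the evening. Every biopsy after 0 h also followed a biopsy of another gland of the same udder, with ampicillin given over the biopsy period. For genes that stood out at 12 h, time after DEX, time of day, the gland sampled, the earlier biopsy and the ampicillin cannot be told apart.

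DEX is a synthetic glucocorticoid. It binds the glucocorticoid receptor, which moves to the nucleus and raises or lowers the transcription of its target genes, and products of the early targets then change further genes. In the lactating gland glucocorticoids act together with prolactin and insulin on the secretory epithelium, which makes up much of the tissue beside vessels, connective tissue and immune cells. In such a bulk biopsy, more cells of a type and more RNA per cell cannot be told apart. The file lists identifiers alone, and 0 of them could be matched to a symbol in the annotation table used here. The roles of the 64 genes, and markers of the epithelium or of other cells in the biopsy, were not analysed here, and 2 of the genes are given by identifier. These are ENSBTAG00000001112, which had the largest change at 12 h, and ENSBTAG00000018115, which had the highest level at 12 h.

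The libraries held 1804120 to 6228132 reads assigned to genes. Reads came from the 3′ end of transcripts, so a normalized count is not scaled by gene length. Cow 4 at 0 h had the fewest, and there 3 reads correspond to 1.74 normalized counts, and the least abundant of the 64 genes had 3 reads in that library. In the 12 h libraries of cows 2 to 4 every one of the 64 genes had at least 21 reads.

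The level of the group as a whole was highest at 12 h in every cow and was lower again at 24 h. The median of the 64 genes in cow 2 was 8.45 normalized counts before DEX and 16.9 at 12 h, followed by 8.99 at 24 h and by 9.99 at 72 h. In cow 3 it was 9.17, 19.6, 10.9 and 10.3 at the same time points, and in cow 4 it was 8.39, 17.2, 9.30 and 8.57. The 12 h libraries were the highest in all 3 cows and did not overlap with the others, which lay between 8.39 and 10.9. The rule had asked for a rise at 12 h in each of these cows and had limited the later mean changes. It thus favoured this separation, which describes the selection. For all 4795 genes, the median of the gene means over these cows stayed between 12.7 and 13.2 across the time points. Averaged over cows 2 to 4, the median of the 64 genes was 8.67 ± 0.435 before DEX (SD, n = 3 cows) and 17.9 ± 1.48 at 12 h. It was 9.72 ± 1.01 at 24 h and then 9.62 ± 0.917 at 72 h. Together the 64 genes made up between 0.127% and 0.142% of the normalized total of these cows at 0 h and between 0.239% and 0.313% at 12 h. This share was between 0.135% and 0.170% at 24 h. At 72 h it was between 0.144% and 0.185%, above the 0 h range. The normalized totals were lower at 72 h, at 781910 to 962212 against 1010720 to 1044340 at 0 h. The summed counts of the 64 genes were higher at 72 h within each cow. Their ranges overlapped, at 1390 to 1565 at 72 h and 1302 to 1480 at 0 h. In cow 1, outside the rule, the median was 9.97 before DEX, 17.8 at 12 h and 9.05 at 24 h, so that its 12 h library was also the highest. The share of the 64 genes in the normalized total of cow 1 was 0.120% before DEX, 0.271% at 12 h and 0.170% at 24 h. Its normalized total was 1254960 before DEX and 808404 at 24 h. The summed counts of the 64 genes in cow 1 were 1503 before DEX, 2887 at 12 h and 1376 at 24 h, so at 24 h the sum was below 0 h although the share was above it.

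**Figure D1:**
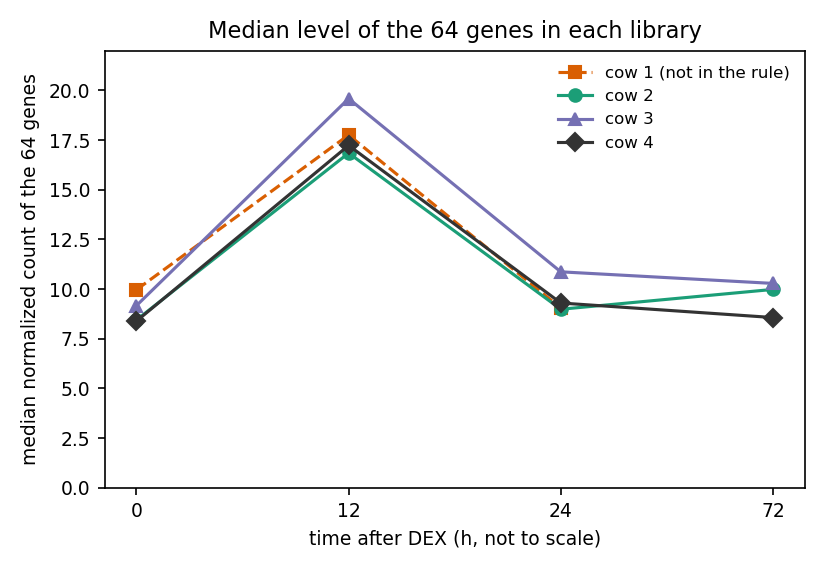
Median normalized count of the 64 genes (y axis) in each library by time after DEX (x axis, h), with a line for each cow. The 12 h libraries lay between 16.9 and 19.6 and all others between 8.39 and 10.9. Cow 1 (dashed) was not used to choose the genes and has no 72 h library.

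Most of the 64 genes lay close to the lower limit that the rule had set at 12 h. Their change at 12 h in cows 2 to 4 had a median of 0.96 on the log2 scale and ranged from 0.80 to 2.18, with 25 genes at 1 or more and 3 genes at 2 or more. In single cows the changes of the 64 genes spread further, from 0.23 to 2.09 in cow 2, from 0.049 to 2.68 in cow 3 and from 0.049 to 2.37 in cow 4. The median change of all 4795 genes at 12 h was 0.070. At 24 h the change lay above 0 in 51 of the 64 genes, against 54.0% of all genes, with a median of 0.22 against 0.046. At 72 h it was above 0 in 48 genes, against 53.6% of all genes, with a median of 0.15 against 0.024. These counts and medians are set in part by the limits of the rule.

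The 64 genes were the smaller part of those raised at 12 h. In all, 369 genes met the limits at 12 h, and in 83 of them (22.5%) the change at 24 h was within 0.4 of 0, of which 19 were further than the limit from the 0 h level at 72 h. Another 102 genes (27.6%) had a change of 0.4 to 0.8 at 24 h, 179 (48.5%) were at 0.8 or more, and 5 had fallen to -0.4 or lower. There was no gap between the 64 genes and the nearest genes that met every limit but the one named. The change at 12 h was 0.802 in the lowest gene inside the limit and 0.798 in the highest of those outside it. At 24 h the largest absolute change inside was 0.395 and the smallest outside 0.404, and at 72 h these were 0.499 and 0.504. The lowest mean inside was 4.01 normalized counts and the highest outside 3.92, and no gene that met the other limits was left out by the upper limit of 4.3 at 12 h. There were 24 genes with a change under 0.9 at 12 h, and 24 with an absolute change over 0.3 at 24 h.

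**Figure D2:**
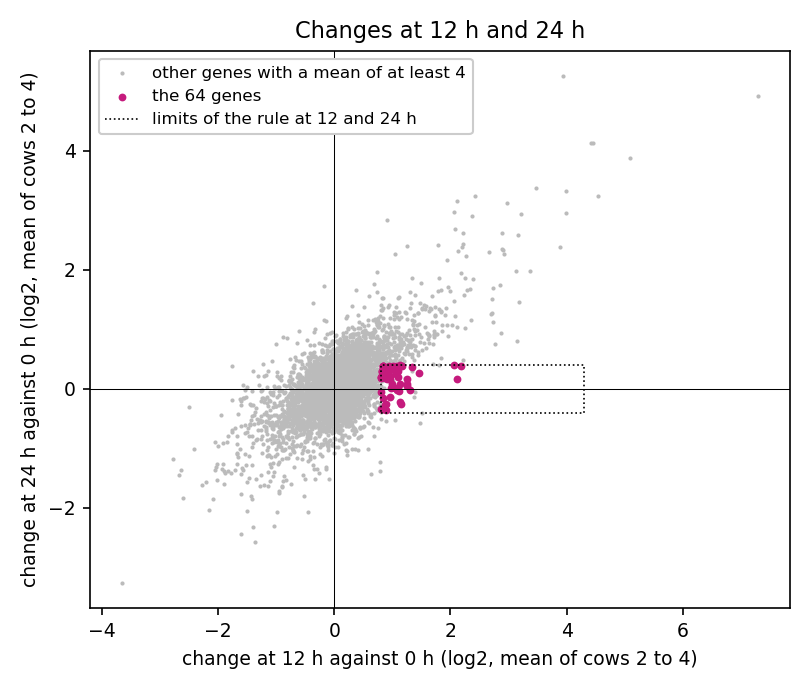
Change at 12 h (x axis) and at 24 h (y axis) against 0 h, log2 of normalized count + 0.5, mean of cows 2 to 4, for 4795 genes. The 64 genes (coloured points) lie inside the dotted limits at 12 and 24 h, and most of them lie near the lower limit of 0.8 at 12 h.

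Levels spread widely among the 64 genes. At 12 h their mean over cows 2 to 4 ranged from 5.81 to 509 normalized counts with a median of 17.1, and 5 genes reached 100 while 16 stayed under 10. ENSBTAG00000018115 had 269, 307 and 269 normalized counts at 0 h in cows 2, 3 and 4 and 406, 623 and 497 at 12 h. At 24 h it had 338, 359 and 342 and at 72 h 280.4, 300.2 and 262. The lowest 12 h library was above the highest library of any other time point, and those at 24 h were all above those at 0 h. Its mean rose 1.80-fold, from 282 ± 22.1 before DEX (SD, n = 3 cows) to 509 ± 109 normalized counts at 12 h. It was 346 ± 11.3 at 24 h and then 281 ± 19.0 at 72 h. The reads behind it in these cows were 465 to 3038 per library. In cow 1 it had 318 normalized counts before DEX, with 577 at 12 h and 217 at 24 h. The change at 12 h was 0.86 in cow 1 on the log2 scale (95% counting interval 0.76 to 0.95), beside the 0.83 of the other cows that the rule had used. At 24 h it was -0.55 (-0.67 to -0.44), against 0.33, 0.22 and 0.35 in cows 2, 3 and 4.

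The largest change was that of ENSBTAG00000001112, at a much lower level. It had 2.41, 3.01 and 2.89 normalized counts at 0 h in cows 2, 3 and 4 and 11.2, 16.4 and 15.6 at 12 h. At 24 h it had 5.14, 3.198 and 3.24 and at 72 h 3.26, 3.56 and 1.88. All 12 h libraries were above all others, and cow 2 was the lowest of the 3 at 12 h and the highest at 24 h. The mean rose 5.20-fold, from 2.77 ± 0.315 before DEX (SD, n = 3 cows) to 14.4 ± 2.79 normalized counts at 12 h. It was 3.86 ± 1.11 at 24 h and then 2.90 ± 0.895 at 72 h. The reads behind it in these cows were 5 to 11 per library at 0 h and 51 to 80 at 12 h. In cow 1 it had 4.86 normalized counts before DEX, with 22.6 at 12 h and 3.85 at 24 h, from 19, 123 and 23 reads. Its change in cow 1 was 2.11 at 12 h (95% counting interval 1.52 to 3.00) and -0.30 at 24 h (-1.27 to 0.62), so that the 24 h level could not be told from that at 0 h at this depth.

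**Figure D3:**
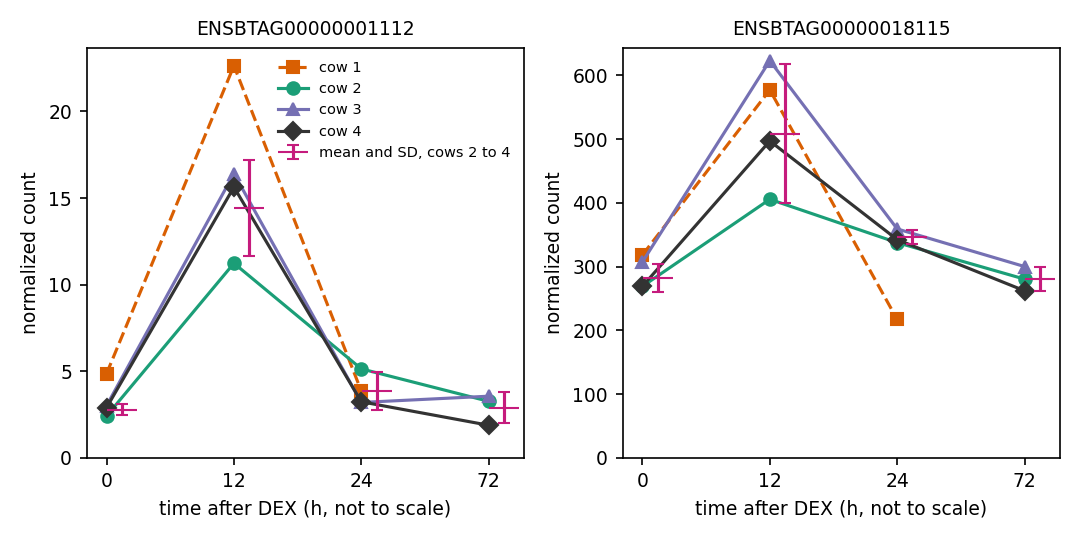
Normalized count (y axis) of ENSBTAG00000001112 and ENSBTAG00000018115 by time after DEX (x axis, h) in each cow, with the mean and SD of cows 2 to 4 beside the points. Both were highest at 12 h in all 4 cows, and at 24 h ENSBTAG00000018115 was at 217 in cow 1 and at 338 to 359 in the other cows.

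Only 2 further genes changed by 2 or more at 12 h, and they differed between cows at 24 h. The gene with the second largest change had 12.1, 18.3 and 14.5 normalized counts at 0 h in cows 2, 3 and 4, and 52.9, 108 and 48.3 at 12 h. At 24 h it had 31.6, 14.5 and 9.98, so it was still raised in cow 2 but not in cows 3 and 4. In cow 1 it had 12.3 normalized counts before DEX, with 76.6 at 12 h and 1.84 at 24 h, which is a change of 2.59 at 12 h and of -2.45 at 24 h (95% counting interval -3.83 to -1.77). The gene with the third largest change had 18.7, 7.22 and 12.2 normalized counts before DEX and 41.2, 49.0 and 64.9 at 12 h. Its levels of 13.2, 20.04 and 14.6 at 24 h were above those before DEX in cows 3 and 4 but not in cow 2. In cow 1 it went from 7.41 to 56.9 and was still at 32.5 at 24 h, a change of 2.06 (1.56 to 2.75). These genes thus shared a rise at 12 h in all 4 cows and had, in cow 1, opposite changes at 24 h.

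The rise at 12 h was also present in cow 1. In that cow 63 of the 64 genes were higher at 12 h than at 0 h, against 52.8% of all 4795 genes, and 36 were higher by at least 0.8 on the log2 scale, against 10.7%. The 95% counting interval of the change lay above 0 in 41 genes, against 21.5% of all genes. The median change in cow 1 was 0.90, with a range of -0.29 to 2.86, and the median of all genes in cow 1 was 0.043. The medians of 0.86, 1.08 and 1.00 in cows 2, 3 and 4 had been used to choose the genes and are no measure of agreement. The gene that was not higher had 12.0 normalized counts at 0 h and 9.75 at 12 h in cow 1, a change of -0.29 with a counting interval of -0.90 to 0.30. With a single animal outside the rule there is no replicate check, genes of an animal are not independent of each other, and no test was made. The sizes of the change in cow 1 and in cows 2 to 4 had a Pearson r of 0.68 over the 64 genes, and of 0.40 without the 3 largest. This is a description across genes of the same libraries, and the values of cows 2 to 4 had been used by the rule and limited at 0.8.

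**Figure D4:**
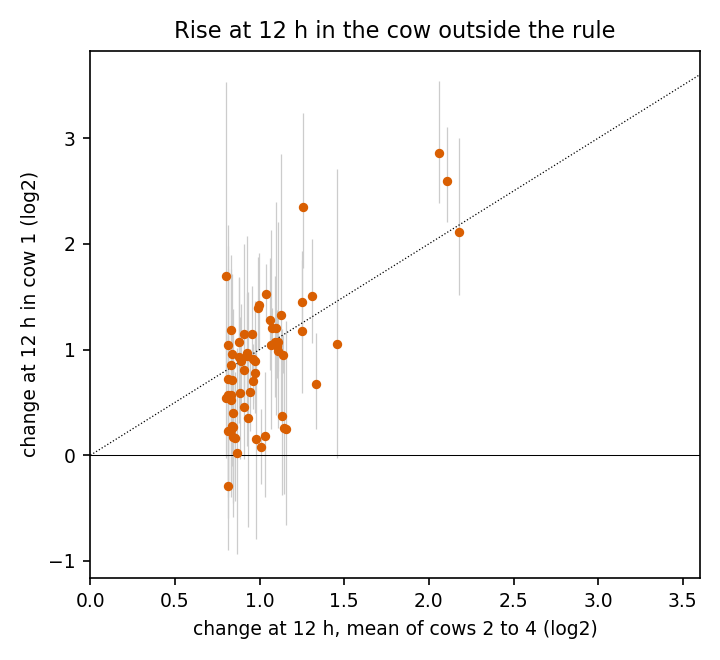
Change at 12 h against 0 h in cow 1 (y axis, log2) and mean change in cows 2 to 4 (x axis, log2) of the 64 genes, with 95% counting intervals for cow 1 from its reads and a dotted line of equal change. Of the 64 points, 63 lie above 0, and the 3 genes with the largest change in cows 2 to 4 are at 2.11 or more in cow 1.

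At 24 h the 64 genes spread widely around the 0 h level in cow 1. Its median change was 0.16, against -0.058 for all genes in cow 1, beside the 0.19, 0.20 and 0.22 of cows 2, 3 and 4 that the rule had limited. The median in cow 1 depended on the settings, at 0.071 with a minimum mean of 10, 0.086 with a pseudocount of 2, and -0.087, 0.13 and 0.089 with cow 2, 3 or 4 left out of the choice. In cow 1, 50 of the 64 genes were lower at 24 h than at 12 h, against 55.0% of all genes. The 12 h library was the highest of the 3 in 49 genes, against 36.2%. However, only 17 of the 64 genes were within 0.4 of their 0 h level at 24 h, or 26.6%, below the 45.7% of all genes. There were 8 genes at least 1 lower on the log2 scale than at 0 h, against 10.7% of all genes, and 9 at least 1 higher, against 7.38%. The counting interval lay below 0 in 15 genes, against 25.6%, and above 0 in 15 genes, against 20.5%. The SD of the 24 h change over the 64 genes was 0.90 in cow 1 and between 0.49 and 0.55 in cows 2 to 4, where the rule held the mean of the 3 cows near 0. Over all 4795 genes, to which no limit applied, it was 0.83 in cow 1 and between 0.66 and 0.73 in the others. All 3 cows of the rule were within 0.4 of 0 at 24 h in 10 of the 64 genes, near the 18.7% of all 4795 genes.

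**Figure D5:**
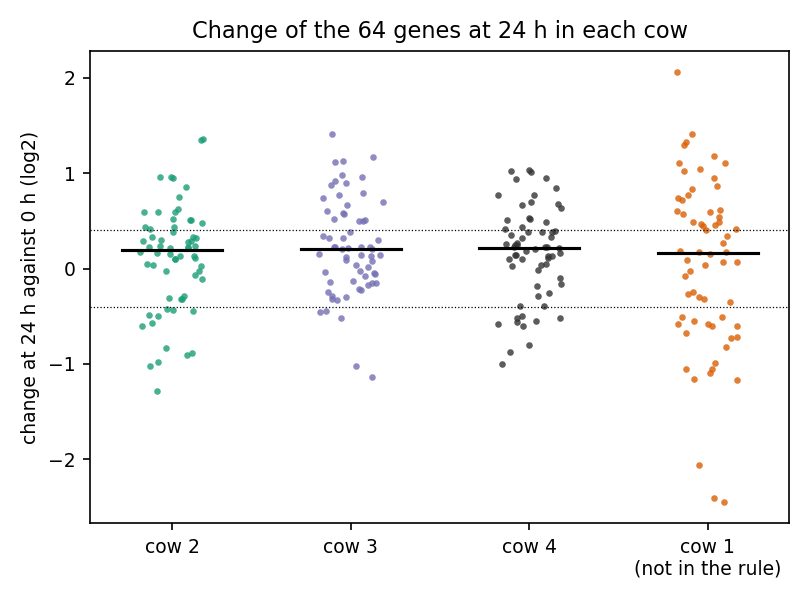
Change at 24 h against 0 h (y axis, log2) of the 64 genes in each cow, with the median as a bar and the limit of 0.4 that the rule set on the mean of cows 2 to 4 as dotted lines. The medians lie between 0.16 and 0.22, while the points of cow 1 spread from -2.45 to 2.06.

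Genes with the same rise at 12 h that were still raised at 24 h, by at least 0.8 on average and above 0 in each of cows 2 to 4, numbered 172. In cow 1, 37 of the 172 genes (21.5%) and 17 of the 64 (26.6%) were within 0.4 of their 0 h level at 24 h. Of the 172 genes, 90 (52.3%) were at least 1 higher on the log2 scale at 24 h than at 0 h in cow 1, against 9 (14.1%) of the 64. Their median change in cow 1 was 1.04 at 24 h and 1.41 at 12 h, against 0.16 and 0.90 for the 64 genes. From 12 h to 24 h the median change in cow 1 was -0.74 for the 64 genes, -0.41 for the 172 genes and -0.076 for all genes, and 78.1% of the first and 68.6% of the second were lower at 24 h. The rise at 12 h in cow 1 was not particular to the 64 genes. There, 165 of the 172 genes (95.9%) were higher at 12 h than at 0 h, against 98.4% of the 64, and 75.6% against 56.2% were higher by at least 0.8. The 12 h library was the highest of the 3 in 118 of the 172 (68.6%), against 76.6% of the 64. The difference between the groups was not tested, since it rests on a single cow.

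The pattern was then read in each of cows 2 to 4 with that cow left out of the choice. The rule on cows 3 and 4 chose 73 genes, and 71 of them were higher at 12 h in cow 2, against 55.1% of all genes there. Their median change in cow 2 was 0.61 at 12 h, 0.22 at 24 h and 0.096 at 72 h, against 0.043, 0.096 and -0.024 for all genes. The rule on cows 2 and 4 chose 50 genes, of which 46 were higher at 12 h in cow 3, against 56.1%, with medians of 1.00, 0.38 and 0.17 against 0.081, 0.021 and 0.066 for all genes. The rule on cows 2 and 3 chose 53 genes, of which 49 were higher at 12 h in cow 4, against 55.4%, with medians of 0.76, 0.23 and 0.18 against 0.074, 0.061 and 0.031. At 24 h the median of the chosen genes was thus above that of all genes in each cow left out, and most so in cow 3. In the cow left out, 62 of 73, 35 of 50 and 45 of 53 genes were lower at 24 h than at 12 h, against 45.9%, 52.1% and 50.3% of all genes. Within 0.4 of the 0 h level at 24 h were 34, 21 and 21 genes, against 51.8%, 53.3% and 49.0%, so the genes were within this limit less often than all genes in each of these cows, a difference that was not tested. Between 24 and 28 of the 64 genes were chosen again without a cow. With cow 1 included, the rule chose 62 genes, of which only 33 were among the 64.

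In the fit across all 13525 genes with a read in cows 2 to 4, limma with Benjamini-Hochberg adjustment called 34 of the 64 genes higher at 12 h than at 0 h at an adjusted p under 0.05, where 2.27% of all genes were called. From 12 h to 24 h, 9 of the 64 genes were called lower, against 0.384% of all genes, and from 12 h to 72 h 20 were, against 2.2%. The rule chose the genes on these contrasts in the same libraries, so the counts describe the selection and nothing is read from them. All genes here include those under the floor of 4 that the 64 genes had passed, and with a minimum mean of 10 the counts at 12 h were 33 of 37 genes and 10.1% of all. In 38 genes all 3 libraries at 12 h were above all 9 others, against 3.71% of all 4795 genes, which the selection had likewise favoured. With cow as a fixed term, the paired form of the fit, the count from 12 h to 24 h was 19 genes, with 0.895% of all genes called. It was 27 with limma-voom (2.43%), 29 with edgeR (3.24%) and 24 with DESeq2 (2.88%) on the recovered reads, and 25 with the libraries of cow 1 added (1.36%), so more of all genes were called as well. Without cow 2, 3 or 4, the count at 12 h fell to 11, 8 and 7 genes, where 1.03%, 0.817% and 0.981% of all genes were called. That from 12 h to 24 h fell to 2, 0 and 0 genes (0.0616%, 0.0616% and 0.0153% of all) and that from 12 h to 72 h to 10, 6 and 8 genes (1.02%, 1.01% and 1.08%). Between 24 h and 0 h limma called 0 of the 64 genes, as did limma-voom, edgeR and DESeq2, and 0 had an unadjusted p under 0.05 in this fit. With cow as a fixed term 3 genes had such a p, with all 15 libraries 7, and without cow 2, 3 or 4 there were 5, 3 and 0. Between 72 h and 0 h it likewise called 0 by each of these tools, with 1 gene at an unadjusted p under 0.05, and 5, 2 and 0 genes without cow 2, 3 or 4. The share of all genes at such an unadjusted p is not given here, so nothing is read from these counts. Of all genes, 2.31% were called at an adjusted p under 0.05 in either direction at 24 h and 0.0% at 72 h. Missing the threshold does not show a return to the 0 h level, which the limits of the rule had set.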

How the data were processed

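The authors trimmed reads with HTStream, aligned them with STAR (version 2.6.0c per the labels) to Bos taurus UMD3.1 with Ensembl release 93, and counted them per gene. The deposited values are normalized counts, a signal equal to CPM times a factor for each library, whose method is not stated in the study's text. The factors differed from edgeR's TMM by at most 8.03e-09%. Every column was matched to a sample by its label. Each value was a whole multiple of the smallest value above 0 in its library (100% within 0.02 of a read), so reads were recovered, between 1804120 and 6228132 per library. Reads carry no molecular identifiers, so counting intervals and the floor of 3 reads cover counting error only. Intervals in cow 1 are exact Clopper-Pearson 95% intervals of the share of reads at the later time point, turned into a log2 ratio without pseudocount.

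The members, the lists and the comparisons were chosen with earlier results of these data known. The log2(normalized count + 0.5) values of cows 2 to 4 (12 libraries) were fitted with limma-trend (limma version 3.58.1, R 4.3.3). Time was the factor, and duplicateCorrelation gave the correlation within cow (0.018). The script was run on simulated counts with changes at 12 h alone and no cow effect. That run does not test the handling of cows or the other contrasts. Labels name the cow, so cow numbers pair the libraries, and after the mean of each time was subtracted the correlation of libraries of a cow was over 0.1 in 18 of 18 pairs (lowest 0.149). The samples of a time point are separate animals. Alternatives were a pseudocount of 0.1 or 2, a minimum mean of 10 or none, median-ratio scaling, other forms of the block, all 15 libraries, leaving out each cow, and 3 tests on recovered reads, namely DESeq2 (version 1.42.0), limma-voom and edgeR (version 4.0.16), the last 2 with genes kept by filterByExpr. The rule for named genes allowed 2 identifiers where symbols could not be matched. Gene lists and cell type markers by symbol were not analysed here.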

Additional observations from a re-analysis of the deposited data

Results flagged for a closer look

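For 15 groups of the 4 cows at a time point (levels and changes of the group median and of the 2 genes given by identifier), the gap of the most extreme cow to its neighbour was compared with the range, and 3 ratios were above the critical value of Dixon's test. Chance alone gives about 1 in 20 groups, but the groups here share values and cows 2 to 4 had been used to choose the genes, with their mean change at 24 h held within 0.4, so no count by chance is given. All 3 were at 24 h, and the last 2 rest on the same value of cow 1. Cow 3 stood apart in the median of the 64 genes, at 10.9 normalized counts where the others had 8.99 to 9.30 (ratio 0.833). Cow 1 stood apart in ENSBTAG00000018115, at 217 normalized counts where the others had 338 to 359 (ratio 0.849), and in its change from 0 h, with -0.55 on the log2 scale against 0.22 to 0.35 (ratio 0.864). The cow taken as ill had stopped ruminating by 24 h, and the part of this in these values was not tested.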

How the results depend on the processing

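Of 74 values recomputed with other settings, 44 moved by less than 1.5 times (counts) or by less than the spread between cows (medians, and the share in the cow left out) or within a 95% binomial interval over genes, which are not independent (the share in cow 1), 29 moved further and 1 reversed. The spread for medians includes cows 2 to 4, which the rule had limited, so these totals are a description and no measure of stability. The cause was not tested except where fewer genes or cows entered. With a minimum mean of 10 the rule kept 37 genes, of which 100% were higher at 12 h in cow 1, with a median change there of 0.071 at 24 h. Without a floor it kept 162 genes, of which 79.6% were higher at 12 h in cow 1, with a median of 0.604. A pseudocount of 2 gave a median in cow 1 of 0.086 at 24 h, and 98% higher at 12 h in the cow left out, against 94.3%. Without a cow, the rule kept 50 to 73 genes, 86.8% to 97.3% of them were higher at 12 h in cow 1, and medians in cow 1 were 0.836 to 0.891 at 12 h and -0.087 to 0.13 at 24 h. The lowest, -0.087 without cow 2, was the value that reversed. Calls in limma without a cow were 7 to 11 at 12 h, 0 to 2 from 12 h to 24 h and 6 to 10 from 12 h to 72 h. From 12 h to 24 h, against 9 genes (0.384% of all genes), there were 19 with cow as a fixed term (the replicate block, 0.895%). There were 25 with all 15 libraries (1.36%), 27 with limma-voom (2.43% of 6698 genes tested), 29 with edgeR (3.24% of 6698) and 24 with DESeq2 (2.88% of 5134). The main fit tested 13525 genes, so these percentages have different bases. With a mean of at least 10 there were 21 of 37 genes, and 4.14% of all genes were called. From 12 h to 72 h, against 20 genes (298 of all 13525 genes, 2.2%), there were 34 with limma-voom (389 of 6698, 5.81%) and 39 with edgeR (447 of 6698, 6.67%). More of all genes were thus called as well. The replicate block moved the counts at 12 h and from 12 h to 72 h by less than 1.5 times, to 34 and 26. In these fits 2.77% and 2.76% of all genes were called. Median-ratio scaling shifted the median of all genes by at most 0.033 on the log2 scale.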

Other observations

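The 24 h change in cow 1 differed with the level of the gene, a pattern seen after the values were known and not tested. Among the 9 of the 64 genes whose mean reached 50 normalized counts, 6 were lower at 24 h than at 0 h in cow 1, with a median change of -0.60. Among the 28 genes with a mean of 10 to 50, 11 were lower and the median was 0.18, and among the 27 genes under 10, 10 were lower and the median was 0.34. In cows 2 to 4 the medians of the same groups were 0.21, 0.18 and 0.28. Over all genes of these levels the medians in cow 1 were -0.079, -0.083 and -0.023, and 56.6%, 54.1% and 51.3% were lower.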
